A study of Danio rerio with 6 samples.

Results

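Tooth and bone mineralization was followed through 10 genes, picked by symbol from the 25432 genes of the count table: odam, scpp1, scpp5, spp1, sparc, sp7, runx2a, runx2b, entpd5a and phex. Each symbol matched a single record. The genes were chosen with their difference between the groups already known, so their values are given as a description and carry no test.

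Poly(A)-selected RNA was sequenced from whole zebrafish embryos at 72 hours post fertilization. The wbp11-MO group received a morpholino against wbp11 and the control-MO group a control morpholino, with 3 libraries per group, called biological replicates in the labels. Each library held 50 pooled embryos. Morpholinos are synthetic antisense molecules that bind a transcript and block its translation or splicing. The labels give no strain, age beyond the hour of collection, morpholino sequence or dose, and the series title presents wbp11 loss as a model of VACTERL association, a pattern of human malformations that includes the vertebrae.

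In bony fish, mineralized tissue is laid down by osteoblasts in bone and by odontoblasts and an overlying epithelium in teeth. Zebrafish teeth sit on the fifth ceratobranchial, in the pharynx, and the jaws are toothless. The transcription factors Runx2 and Sp7 drive osteoblast differentiation. The cells then secrete collagen and acidic proteins, among them Sparc and the secretory calcium-binding phosphoproteins (SCPPs), a family that arose from a SPARC-like ancestor by tandem duplication. Enzymes such as Entpd5 and Phex act on phosphate supply or on the proteins that regulate it.

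Library totals ran from 11219706 to 13669995 counts, and libraries of a group differed by more than sampling noise. The target transcript was no lower under wbp11-MO. Of its records, that on chromosome 3 (1395079 to 1400309, GRCz11, the build of all coordinates here) stood at 23.0, 25.7 and 25.4 CPM, or counts per 1e+06 counts with scaling between libraries, against 14.7, 12.4 and 17.6 CPM in control-MO. Its log2 fold change was 0.72 (SE 0.12) with an edgeR adjusted p = 4.7e-06. A further record, on scaffold KN150013.1, averaged 10.1 ± 0.74 CPM, against 8.12 ± 1.02 CPM in control-MO (SD, n = 3 each; edgeR adjusted p = 0.10). Morpholinos that stop translation need not lower the RNA, and the labels do not give the type. The transcript therefore does not check the labels, and all directions refer to libraries labelled wbp11-MO.

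The SCPP genes of teeth stood furthest apart between the groups. The gene odam (ENSDARG00000074476, chromosome 1, 43958198 to 43963441, minus strand) encodes a secreted protein made by ameloblasts and gum epithelium in mammals. It had 0 counts in each of the 3 libraries labelled wbp11-MO, against 79, 64 and 62 counts in control-MO. No read was seen in the first group, which allows up to 0.0784 CPM when the floor is set at 3 counts over the group. Against that floor odam was at least 66.7-fold lower, with its control-MO count taken as exact. Floors here cover counting error in wbp11-MO only, and count intervals cover counting error in both groups. Floors and intervals pool the 3 libraries of a group and leave out the spread between libraries, and PCR copies of a molecule were not told apart. In whole embryos, fewer cells of a type and less RNA per cell cannot be told apart.

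The gene scpp5 (ENSDARG00000078622, chromosome 1, 43909933 to 43915567, minus strand) encodes a secreted protein of fish tooth matrix. It had 3, 3 and 2 counts in the libraries labelled wbp11-MO, against 279, 239 and 367 in control-MO. Every control-MO library was thus far above every library of the other group. The level was 108-fold lower, with an exact 95% count interval from 54.6 to 251. On the fitted scale this was a log2 fold change of -6.69. The gene scpp5 passed the expression filter only through its control-MO libraries, so no test is drawn on.

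The gene scpp1 (ENSDARG00000090416, chromosome 1, 37379063 to 37383741, minus strand) belongs to the acidic SCPPs of tooth and bone. It had 1, 0 and 1 counts in the libraries labelled wbp11-MO, against 11, 24 and 22 in control-MO. The groups did not overlap, but the gene was rare in both. The count ratio was 27.8-fold lower, with an exact 95% interval from 7.36 to 235.

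The gene spp1 (ENSDARG00000044276, chromosome 10, 15120711 to 15128771, minus strand) encodes osteopontin, an acidic phosphoprotein that binds bone mineral. It stood at 2.81, 1.70 and 2.84 CPM in the libraries labelled wbp11-MO, against 2.77, 5.03 and 3.79 CPM in control-MO. The groups overlapped, since control-MO replicate 1 lay below the pair of higher libraries of the other group. The log2 fold change was -0.64 ± 0.29 (SE), -0.84 without control-MO replicate 1 and -0.42 without control-MO replicate 2.

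The gene sparc (ENSDARG00000019353, chromosome 14, 25937948 to 25956860, minus strand) encodes osteonectin, which binds collagen and calcium and is made by many tissues besides bone. It was by far the most abundant of the 10, with 93.2% of their summed counts in wbp11-MO and 91.8% in control-MO. Its level was 770.4, 781 and 748 CPM in the libraries labelled wbp11-MO, against 1075, 963 and 1050.2 CPM in control-MO. The groups did not overlap, and the difference was small next to that of odam or scpp5, a log2 fold change of -0.43 ± 0.05 (SE).

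By estimate, the osteoblast transcription factor genes differed by less than odam, scpp5 and scpp1. The count interval of runx2a, given below, overlaps that of scpp1. The gene sp7 (ENSDARG00000019516, chromosome 6, 58622831 to 58674160, plus strand) encodes osterix, which acts after Runx2 in osteoblast differentiation. It stood at 3.91, 2.26 and 2.60 CPM in the libraries labelled wbp11-MO, against 5.62, 5.12 and 4.88 CPM in control-MO. The groups did not overlap, and the log2 fold change was -0.82 ± 0.25 (SE).

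Zebrafish carry a pair of runx2 genes. The gene runx2b (ENSDARG00000059233, chromosome 20, 43994848 to 44090660, minus strand) had 11, 25 and 37 counts in the libraries labelled wbp11-MO, against 34, 37 and 54 in control-MO. The groups overlapped, and the log2 fold change was -0.73 ± 0.35 (SE). That value rests on single libraries, at -0.35 without wbp11-MO replicate 1 and -1.19 without wbp11-MO replicate 3.

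Its partner runx2a (ENSDARG00000040261, chromosome 17, 5351922 to 5516693, plus strand) was the rarest gene of the set in control-MO. It had 3, 4 and 0 counts in the libraries labelled wbp11-MO, against 8, 11 and 4 in control-MO. The groups overlapped, since the lowest control-MO library held as many counts as the highest of the other group. The summed counts of 7 and 23 were too few for the expression filter, and their ratio was 3.21-fold lower, with an exact 95% interval from 1.33 to 8.86. Reads that fit both runx2 genes may have been dropped or split. With both summed, the level was 2.13 ± 1.00 CPM in wbp11-MO and 3.79 ± 0.64 CPM in control-MO (SD, n = 3 each). The runx2a record also overlaps supt3h on the opposite strand, and counting by strand is not stated in the sources used here. The runx2b record likewise overlaps BX510352.1 on the opposite strand, a record with 0 counts in both groups.

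The enzyme genes of phosphate supply differed from each other. The gene entpd5a (ENSDARG00000053481, chromosome 17, 45030407 to 45040813, minus strand) encodes a nucleoside diphosphatase without which zebrafish fail to mineralize bone. It stood at 6.50, 6.22 and 5.92 CPM in the libraries labelled wbp11-MO, against 11.7, 8.78 and 10.9 CPM in control-MO. The groups did not overlap, and the log2 fold change was -0.75 ± 0.17 (SE). Its paralog entpd5b, a gene of the phosphate list, fell by 0.70 on the log2 scale, with an SE of 0.10 (edgeR adjusted p = 3.3e-07). The paralog was named after its value was seen and adds no support for entpd5a.

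The gene phex (ENSDARG00000062363, chromosome 24, 25404358 to 25442346, minus strand) encodes a membrane endopeptidase whose loss causes X-linked hypophosphatemia in humans. Its groups overlapped. It stood at 40.0, 41.7 and 44.9 CPM in the libraries labelled wbp11-MO, against 38.9, 41.6 and 40.1 CPM in control-MO. The log2 fold change was 0.07 ± 0.08 (SE), and -0.0049 when libraries were scaled by their totals alone.

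**Figure D1:**
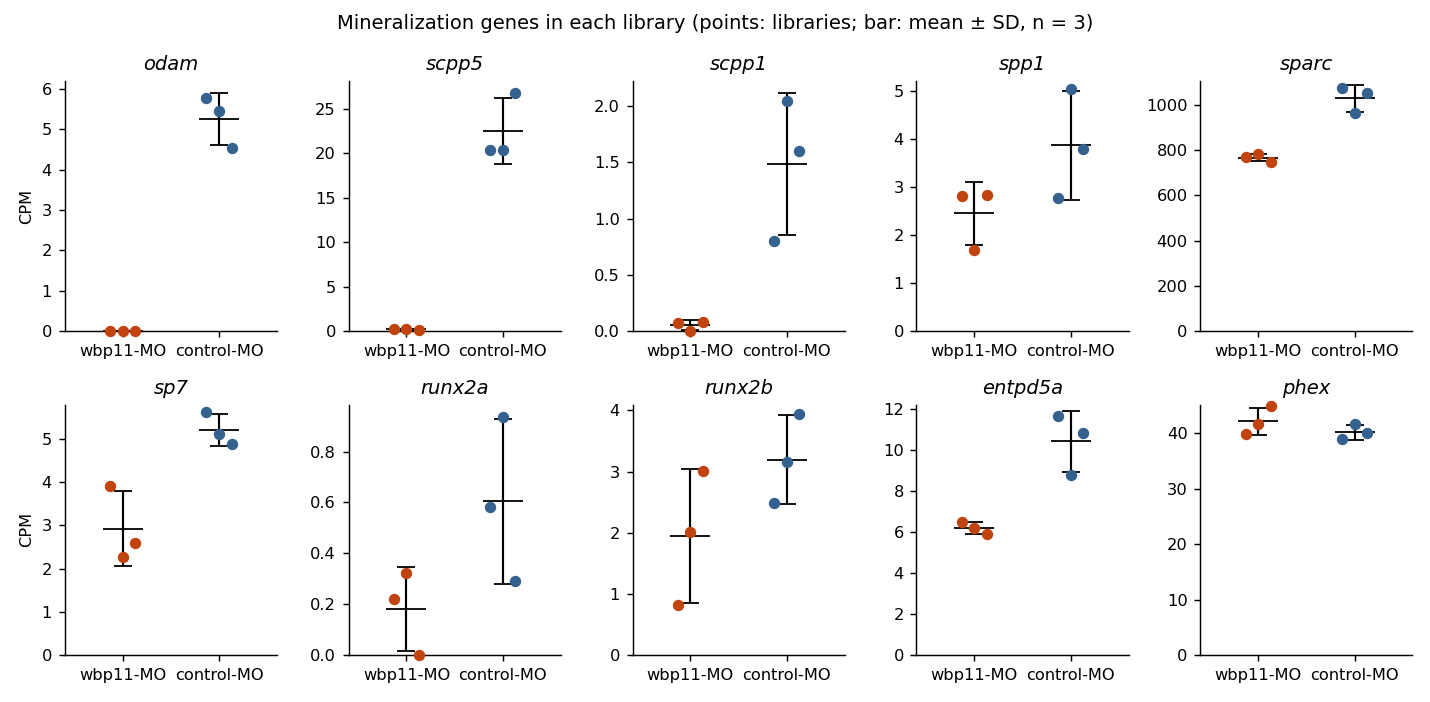
Level of each mineralization gene in CPM (vertical axis, linear and starting at 0) in the 3 libraries labelled wbp11-MO (left) and the 3 control-MO libraries (right). Points are libraries and bars give the mean ± SD. Groups stand apart for odam, scpp5, scpp1, sparc, sp7 and entpd5a, and overlap for spp1, runx2a, runx2b and phex.

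Across the set, the groups did not overlap in 6 of the 10 genes, all lower in the libraries labelled wbp11-MO, where 65.4% of all tested genes did not overlap and 33.1% were lower without overlap. The expression filter kept 9 of the 10, of which odam, scpp5 and scpp1 passed only through their control-MO libraries. In the fit across all 20012 tested genes the same 6 genes were lower past the threshold (edgeR adjusted p under 0.05), a call that 31.2% of tested genes met in that direction, 30.5% met as higher and 61.7% met in either. None of the 10 was higher past the threshold. Since the genes were chosen on this contrast, nothing is read from these counts.

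Levels per gene length, from the authors' FPKM (counts over gene length and column total), show how the order of the genes differed between the groups. In the libraries labelled wbp11-MO the order was sparc at 206 ± 6.05 FPKM, phex at 13.7 ± 0.66, entpd5a at 1.72 ± 0.10, spp1 at 1.59 ± 0.43, runx2b at 0.710 ± 0.39 and sp7 at 0.507 ± 0.16 (SD, n = 3). Below them came scpp5 at 0.214 ± 0.043 FPKM, runx2a at 0.104 ± 0.094, scpp1 at 0.0164 ± 0.014 and odam at 0. In control-MO the order was sparc at 291 ± 11.8 FPKM, scpp5 at 24.2 ± 3.78, phex at 13.7 ± 0.68, odam at 6.48 ± 0.83, entpd5a at 3.03 ± 0.39, spp1 at 2.64 ± 0.82, runx2b at 1.23 ± 0.28, sp7 at 0.947 ± 0.066, scpp1 at 0.497 ± 0.22 and runx2a at 0.364 ± 0.20 (SD, n = 3). The gene scpp5 thus stood at rank 7 in wbp11-MO and rank 2 in control-MO, and odam at rank 10 and rank 4. Ranges of neighbours in the order overlapped for entpd5a and spp1 and for runx2b and sp7 in both groups. They also overlapped for spp1 and runx2b, and among scpp5, runx2a, scpp1 and odam from each to the next, in wbp11-MO, and for scpp1 and runx2a in control-MO.

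**Figure D2:**
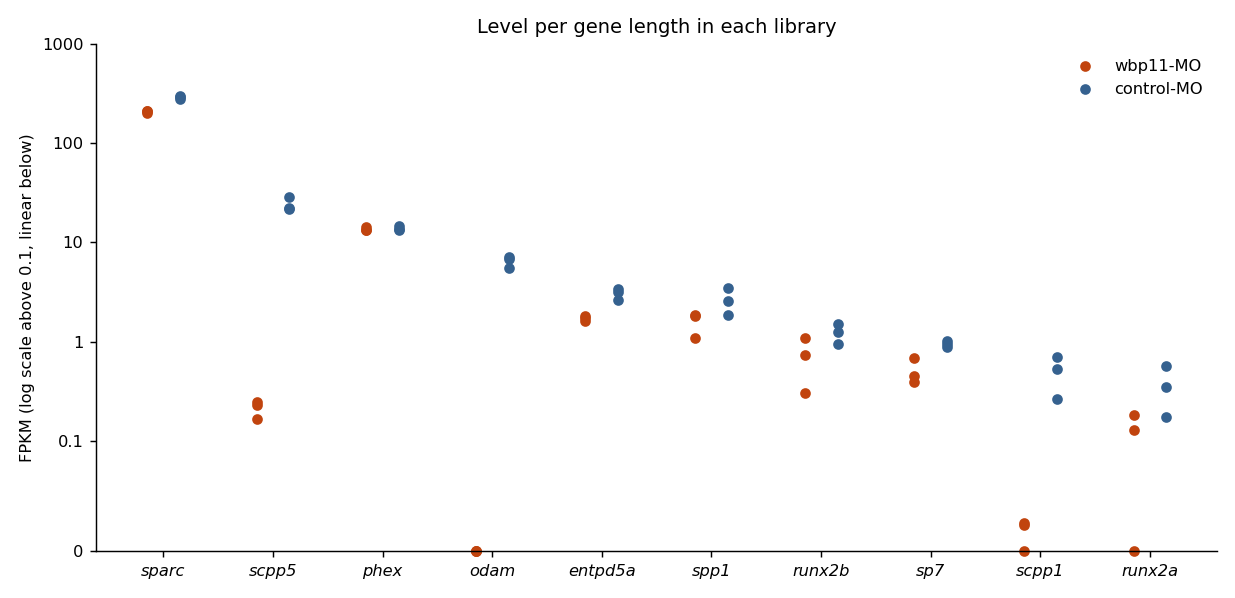
Level per gene length (FPKM, log scale above 0.1 and linear below) of the mineralization genes in each library, ordered by their mean in control-MO. Points are single libraries, wbp11-MO left of control-MO. The points of scpp5 lie near 0.214 FPKM in wbp11-MO and near 24.2 FPKM in control-MO, those of odam at 0 and near 6.48 FPKM, and those of phex near 13.7 FPKM in both.

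The position of the tooth genes was then examined, since scpp5 and odam lie in a row of SCPP genes on chromosome 1, all on the minus strand. From enam to scpp9 the row spans 71.1 kb. Beyond scpp5 and odam, the row holds enam, scpp7, ambn, si:dkey-22i16.7 and scpp9. The gene enam (43901966 to 43905263), named after the mammalian enamel matrix protein enamelin, stood at 5.17, 7.19 and 9.41 CPM in the libraries labelled wbp11-MO, against 35.9, 30.7 and 35.4 CPM in control-MO. It fell by 2.24 ± 0.14 on the log2 scale (SE, edgeR adjusted p = 9.1e-15). The SCPP gene scpp9 (43969797 to 43973068) had 0 counts in all 3 libraries labelled wbp11-MO, against 36, 26 and 32 in control-MO. It was at least 30.6-fold lower against the floor of 3 counts over the group, with its control-MO count taken as exact. It passed the expression filter only through its control-MO libraries, so its call carries no weight of its own.

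Other genes of the row were hardly seen. The gene scpp7 had 0 counts in wbp11-MO and 1 count in control-MO, and ambn, named after the mammalian enamel matrix protein ameloblastin, had 0 counts in all 6 libraries. The record si:dkey-22i16.7 had 21 counts over wbp11-MO and 10 over control-MO. These 3 did not pass the filter, and at this depth no difference was detectable in scpp7 or ambn. The flanking gene si:dkey-22i16.9 stood at 6.62 ± 2.19 CPM in wbp11-MO and 5.96 ± 1.04 CPM in control-MO (SD, n = 3 each). The flanking gene on the other side, cnga1a, named for a cyclic nucleotide-gated channel, had 6, 1 and 1 counts in the libraries labelled wbp11-MO and 55, 56 and 47 in control-MO. It too passed the filter only through control-MO, and no test is drawn on.

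**Figure D3:**
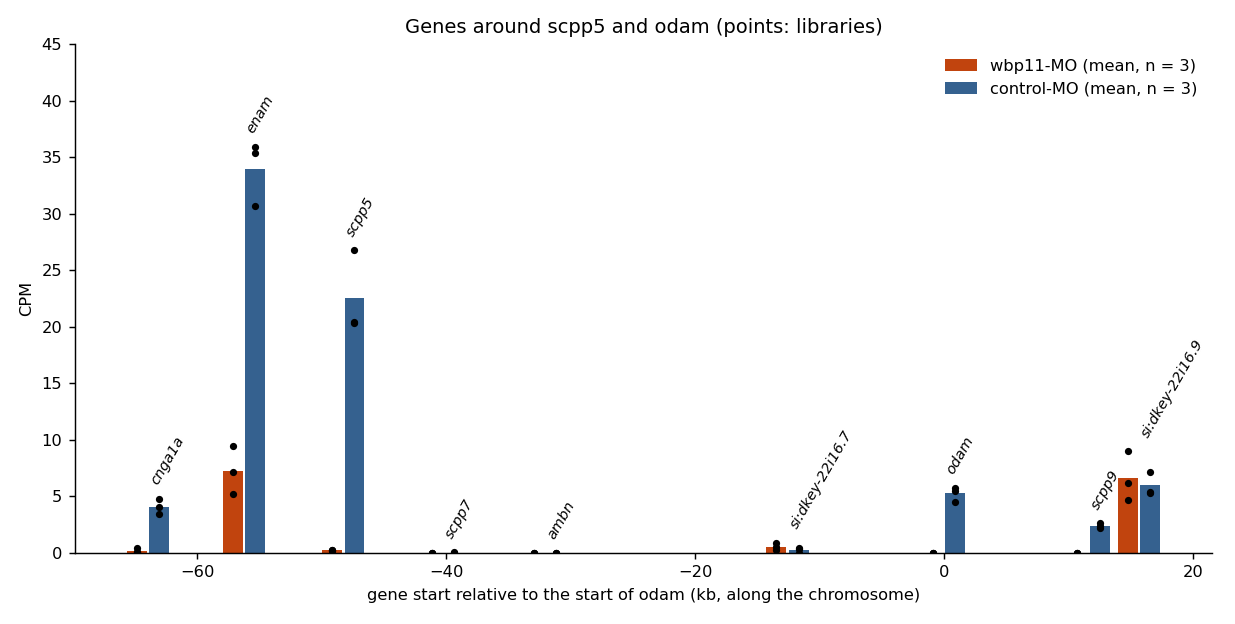
Mean level (CPM, bars from 0) and single libraries (points) of the genes around scpp5 and odam, by the distance of each gene start from that of odam in kb; wbp11-MO bars stand left of control-MO bars. The genes cnga1a, enam, scpp5, odam and scpp9 are lower in wbp11-MO, while si:dkey-22i16.9 overlaps between the groups at 6.62 and 5.96 CPM.

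The other SCPP members have different neighbours. Beside scpp1 lie sparcl1, a SPARC-family gene, at 20.9 ± 2.14 CPM in wbp11-MO and 27.4 ± 2.12 CPM in control-MO (SD, n = 3 each), and tnip2, at 7.25 ± 0.92 and 2.81 ± 0.70 CPM in the same groups. The first fell by 0.39 on the log2 scale (edgeR adjusted p = 0.0020) and tnip2 rose by 1.37 (edgeR adjusted p = 7.0e-06). Beside spp1 lies scpp8, which had 10, 123 and 22 counts in the libraries labelled wbp11-MO and 11, 8 and 15 in control-MO. The groups overlapped, and the higher call of scpp8 (log2 fold change 2.24, edgeR adjusted p = 0.00099) rests on wbp11-MO replicate 2. Without that library the log2 fold change was 0.52 (edgeR adjusted p = 0.41, the highest over the alternatives, which began at 2.6e-08).

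Over all 10 genes, the 3 nearest genes on each side came to 57 records, of which 42 were tested. Of these, 20 were lower and 9 higher in the libraries labelled wbp11-MO, where 31.2% of all tested genes were lower and 30.5% higher. The share called in either direction was 69.0%, against 61.7% of all tested genes. The 20 include scpp9 and cnga1a, which passed the filter only through control-MO, so these counts only describe the neighbours. Next to sparc, g3bp1 rose by 0.40, while atox1 on the other side was not called (log2 fold change -0.15, edgeR adjusted p = 0.13). Next to sp7, igsf8 fell by 0.59, and helz2 on the other side was not tested. Beside the runx2 pair the paralogs clic5a and clic5b went opposite ways, with a log2 fold change of 0.78 for clic5a next to runx2a and -1.03 for clic5b next to runx2b. On the other side of runx2a, supt3h was not called (log2 fold change 0.25, edgeR adjusted p = 0.076). The records BX510352.1 beside runx2b and CR925756.1 beside spp1 had no counts in any library. Beside phex, mbtps2 rose by 0.44 and ptchd1 fell by 1.11. Beside entpd5a, coq6 had a log2 fold change of -0.04 (edgeR adjusted p = 0.72). On its other side, aldh6a1 was called lower at -0.13 (edgeR adjusted p = 0.030), a call lost in 4 of 14 alternatives.

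Other genes of the pathway were taken from 6 lists by textbook role, chosen with earlier results of these data known. The lists held 165 records, 146 of them tested. Of these, 53 (36.3%) were lower and 29 (19.9%) higher in the libraries labelled wbp11-MO, against 31.2% and 30.5% of all tested genes. The share called in either direction, 56.2%, lay below the 61.7% of all tested genes. Of the 146, 10 passed the filter only through control-MO and 3 only through wbp11-MO, so these counts describe the lists and support nothing further. The list of SCPP, SPARC and enamel matrix genes includes enam, scpp8, scpp9 and sparcl1 above. In this list 8 of 11 tested genes fell and 1 was called higher, or 81.8% called. Of the 11, 3 (scpp9, slc24a4b and cnnm4a, all called lower) passed the filter only through control-MO. Without control-MO replicate 1, 5 were lower. The list median of the log2 fold change was -0.92, against 0.0013 over all genes tested. The 3 genes that entered only through control-MO all lie below this median, slc24a4b at -1.90 and cnnm4a at -1.06. They pull the median down, so nothing is read from it. Apart from enam, scpp9 and sparcl1, the genes that fell were sparcl2, slc24a4a, slc24a4b, fam83ha and cnnm4a, whose human or mouse relatives include genes of enamel formation.

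Tooth and jaw patterning genes differed little. Of 20 tested, 3 fell, 3 rose and 14 did not pass the test, a median log2 fold change of 0.01, and 30.0% were called, against 61.7% of all tested genes. The transcription factor gene pax9, needed for tooth development in mice, stood at 14.3, 12.4 and 14.4 CPM in the libraries labelled wbp11-MO, against 21.4, 20.9 and 20.6 CPM in control-MO. It fell by 0.61 ± 0.12 on the log2 scale (SE, edgeR adjusted p = 3.5e-05), and edaradd, an adaptor of the ectodysplasin receptor, fell by 1.12 ± 0.31 (SE, edgeR adjusted p = 0.0023). The homeobox genes barx1 and msx1b rose by 0.58 and 0.41.

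Osteoblast regulators divided, with 8 of 28 tested lower and 7 higher, or 53.6% called against 61.7% of all tested genes, and a median of -0.06. Without wbp11-MO replicate 2, 4 were higher. The transcription factor gene twist2 averaged 7.56 ± 1.59 CPM in wbp11-MO and 17.2 ± 1.02 CPM in control-MO (SD, n = 3 each), and fell by 1.19 ± 0.15 on the log2 scale (SE, edgeR adjusted p = 4.6e-08). The transcription factor gene mef2cb fell by 0.59. The Wnt co-receptor genes lrp5 and lrp6 rose by 0.72 and 0.68.

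Of 23 tested bone matrix genes, 15 (65.2%) were lower and 4 (17.4%) higher, against 31.2% and 30.5% of all tested genes. The list median was -0.39. The share called in either direction was 82.6%, against 61.7% of all tested genes. Of the 23, 2 passed the filter only through control-MO. With a library left out, 13 to 16 were lower. The periostin gene postna stood at 18.7 ± 2.02 CPM in wbp11-MO and 73.8 ± 2.60 CPM in control-MO (SD, n = 3 each), and fell by 1.98 ± 0.08 on the log2 scale (SE, edgeR adjusted p = 4.5e-19). Its paralog postnb went the other way, at 1413 ± 67.2 CPM in wbp11-MO and 1007 ± 18.2 CPM in control-MO (edgeR adjusted p = 1.2e-10). The collagen gene col10a1a, expressed by zebrafish osteoblasts, stood at 98.9, 139.7 and 120.0 CPM in the libraries labelled wbp11-MO, against 278, 286 and 293 CPM in control-MO. It fell by 1.26 ± 0.07 (SE, edgeR adjusted p = 1.2e-15), while the tenascin gene tnc rose by 0.79. The osteocalcin gene bglap had no count in any library.

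Genes of phosphate, pyrophosphate and calcium handling were called in 50.0% of 36 tested, against 61.7% of all tested genes, 12 lower and 6 higher, with a median of -0.20. The gene enpp1, whose enzyme makes the mineralization inhibitor pyrophosphate, stood at 24.4 ± 2.72 CPM in wbp11-MO and 55.5 ± 2.46 CPM in control-MO (SD, n = 3 each). It fell by 1.18 ± 0.09 on the log2 scale (SE, edgeR adjusted p = 3.1e-13), and the phosphate exporter gene xpr1a fell by 0.84. The phosphate importer gene slc20a1b and cyp24a1, whose enzyme inactivates vitamin D, rose by 0.77 and 0.88.

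Osteoclast genes, which serve the resorption of bone, were 7 lower and 8 higher among 28 tested records, or 53.6% called against 61.7% of all tested genes, with a median of 0.08. The gene mmp9 stood at 143 ± 24.8 CPM in wbp11-MO and 9.98 ± 0.96 CPM in control-MO (SD, n = 3 each), and acp5a, a tartrate-resistant phosphatase gene, at 38.7 ± 13.1 and 1.07 ± 0.22 CPM. They rose by 3.84 ± 0.10 and 5.16 ± 0.23 on the log2 scale (SE, edgeR adjusted p = 6.8e-24 and 2.7e-18). The metalloprotease gene mmp9 is also expressed by neutrophils and macrophages. The calcitonin receptor gene calcr fell by 2.35 ± 0.24 (SE, edgeR adjusted p = 4.3e-10), and the matrix protease gene mmp14b fell by 0.28.

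**Figure D4:**
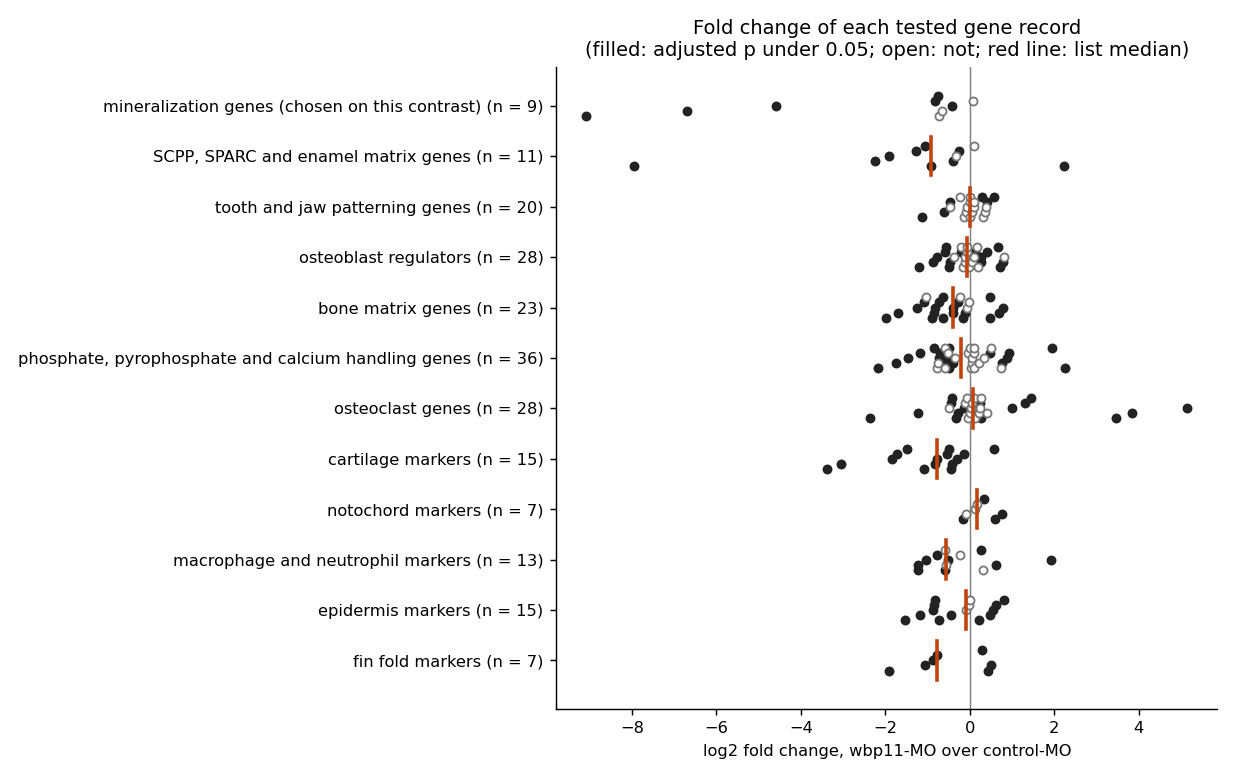
Log2 fold change (wbp11-MO over control-MO, horizontal axis) of every tested record of the mineralization genes, the 6 pathway lists and the 5 marker lists. Filled points passed an adjusted p under 0.05, open points did not, and red lines are list medians, from -0.92 in the SCPP and enamel list to 0.17 in the notochord list; the mineralization genes have no median line because they were chosen on this contrast. Fitted values of odam and scpp9, which had no counts in wbp11-MO, depend on the prior count and are no bound. The SCPP and enamel median includes 3 genes that passed the filter only through control-MO.

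Markers of other tissues were set against the same background, 31.2% lower and 30.5% higher over all tested genes. Of 57 tested marker records, 2 passed the filter only through control-MO, 1 of cartilage and 1 of macrophages and neutrophils. These lists too were chosen with earlier results of these data known. Their counts are thus a description and support nothing further. Of 15 cartilage markers, 14 (93.3%) fell and 1 rose, with a median of -0.77 and a summed level of 4894 to 5011 CPM in wbp11-MO, against 7940 to 8644 CPM in control-MO. Of 7 fin fold markers, 4 (57.1%) fell and 3 (42.9%) rose, with a median of -0.77 and a summed level of 643 to 744 CPM in wbp11-MO, against 1116 to 1296 CPM in control-MO. Of 13 tested macrophage and neutrophil markers, 6 (46.2%) fell and 3 (23.1%) rose, with a median of -0.56 and a sum of 91.7 to 97.9 CPM, against 105 to 108 CPM in control-MO. Only 1 of them rose without wbp11-MO replicate 1, without wbp11-MO replicate 2 or without control-MO replicate 3. The cartilage gene matn1 fell by 3.38, the fin fold gene and2 by 1.91 and the neutrophil peroxidase gene mpx by 1.21. The cartilage gene hapln1a rose by 0.58, and the fin fold genes frem2b and frem2a rose by 0.51 and 0.44. The macrophage genes mpeg1.1 and mpeg1.2 went opposite ways, with log2 fold changes of -0.77 and 1.94.

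For epidermis and notochord markers the summed levels overlapped between the groups. Of 15 epidermis markers, 7 (46.7%) fell and 5 (33.3%) rose, with a median of -0.09 and a sum of 12763 to 14522 CPM in wbp11-MO, against 11185 to 13244 CPM in control-MO. Here evplb, which encodes an envoplakin of the cell envelope, fell by 1.54 and the cadherin gene cdh1 rose by 0.81. Of 7 tested notochord markers, 1 (14.3%) fell and 3 (42.9%) rose, with a median of 0.17 and a sum of 324 to 350 CPM, against 314 to 342 CPM in control-MO, and tbxta rose by 0.60. The notochord marker called lower, cmn, lost its call without replicate 1 or 2 of either group. No marker of these 5 lists was at 0 over a whole group, but the neutrophil marker lyz had 1 count over wbp11-MO and 2 over control-MO. The part of these tissues in the values of the mineralization genes was not tested.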

How the data were processed

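HTSeq 2.0.5, FastQC 0.12.1 and build GRCz11 are named in the submitters' processing notes. Aligner, annotation release, strand setting and treatment of multi-mapped reads: not given in the sources used here. Per the file headers, the deposited table holds raw read counts and FPKM by library, and the deposited FPKM equal count over gene length and column total (largest relative difference 1.72e-14). Columns were matched to samples by name.

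Counts were fitted in R 4.3.3 with edgeR 4.0.16 (filterByExpr, minimum count 10, TMM, quasi-likelihood F-test, no replicate block), adjusting by Benjamini-Hochberg over 20012 genes. CPM use TMM-adjusted filtered totals, and SE come from the fold change and F. Library pairs of a group had chi-square per degree of freedom of 2.61 to 4.00, so none was counted as a duplicate. The members and lists were chosen with earlier results of these data known. Lists were matched by exact table symbol, with 16 symbols not matched and not analysed here. Named list genes are up to 2 called per direction with the smallest adjusted p and a mean of at least 1 CPM in a group, plus the nearest neighbours, and other genes named were chosen after their values were seen. Each list gives its counts and median, and no set test was run. Simulated counts tested the edgeR step for wbp11-MO over control-MO: over 20012 genes 36 of 67 genes with a 1.5-fold change were found, as were 60 of 67 at 2-fold and 64 of 66 at 4-fold. Among 19812 genes simulated without change, 8 were called. Few genes changed in the simulation, whereas 61.7% of tested genes were called in the data, so these rates need not hold there. Alternatives were RLE and upper-quartile factors, library totals, a replicate block, no filter beyond 1 count, a minimum CPM of 1 in at least 3 libraries (strict filter), DESeq2 1.42.0, limma-voom (limma 3.58.1) and leaving out each library. A planned description of protein composition was not made, as sequences were not used here.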

Additional observations from a re-analysis of the deposited data

How the results depend on the processing

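Over 14 alternatives, the counts of called genes in all genes, in the mineralization genes, in the 11 lists and in the neighbours each stayed within 1.5 times their value, over both directions. Counts in a single direction moved further in 4 lists (SCPP and enamel genes, osteoblast regulators, leukocyte and notochord markers), most often with a library left out. Among the mineralization genes, 6 were past the threshold, 5 to 8 over all alternatives and 6 to 7 with a library left out. With a replicate block 7 were past it, runx2b being added, and 12096 genes were called in all, against 12349 without the block. Same-numbered libraries did not deviate together (correlations from -0.038 to 0.0098). With 3 libraries per group this cannot settle whether the numbers pair them, and the labels do not say that they do. The log2 fold change of phex turned to -0.0049 with library totals. That scaling moved the median of all genes to -0.07 and the split of calls to 5243 higher and 6897 lower, against 6105 and 6244. The call of scpp8 was lost with DESeq2 (adjusted p = 0.055), with limma-voom (adjusted p = 0.064) and without wbp11-MO replicate 2. The gene spp1 came past the threshold with upper-quartile factors, library totals, no filter or without control-MO replicate 1, and runx2b with library totals, no filter, the block, limma-voom or without wbp11-MO replicate 3. The mineralization genes were chosen on this contrast. Their counts and single calls in this paragraph thus describe the settings and are no test of the genes. The strict filter removed scpp1. Of 867 gene-level values under alternatives, 840 kept direction and side of the threshold, 15 lost the call, 11 gained it and 1 turned. What moved these values was not tested. Depth limits scpp1, runx2a, scpp7 and ambn, which had few or no counts.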

Other observations

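Some genes of the bone matrix and osteoblast regulator lists, already counted there, were chosen after their values were seen. Their values are given as a description and add no support. The alkaline phosphatase gene alpl, whose enzyme frees phosphate from pyrophosphate, stood at 13.6, 16.0 and 14.6 CPM in the libraries labelled wbp11-MO, against 26.9, 31.3 and 21.4 CPM in control-MO (edgeR adjusted p = 6.9e-07). The phosphatase gene phospho1 averaged 11.2 ± 1.68 CPM in wbp11-MO and 13.1 ± 1.03 CPM in control-MO (SD, n = 3 each; edgeR adjusted p = 0.17). The Runx partner gene cbfb fell by 0.47 on the log2 scale (edgeR adjusted p = 9.7e-06). The abundant bone and skin collagen gene col1a1a fell by 0.27, at 2464 ± 139 CPM in wbp11-MO and 2977 ± 234 CPM in control-MO. The related genes col1a1b and col1a2 were called lower by less, at -0.17 and -0.11 on the log2 scale, with overlapping groups.

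Hormone and resorption genes, also chosen after their values were seen, gave mixed values. The gene fgf23, whose product lowers blood phosphate in mammals, had 17, 32 and 27 counts in the libraries labelled wbp11-MO, against 5, 8 and 3 in control-MO, and passed the expression filter only through wbp11-MO. The cathepsin K gene ctsk averaged 51.3 ± 2.27 CPM in wbp11-MO and 49.3 ± 1.96 CPM in control-MO, and acp5b, the paralog of acp5a, 1.60 ± 0.31 and 1.54 ± 0.27 CPM (SD, n = 3 each; edgeR adjusted p = 0.51 and 0.93). The sclerostin gene sost had a log2 fold change of -0.06 (edgeR adjusted p = 0.61).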
